A study of Homo sapiens with 9 samples.

Results

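The Notch pathway was followed through 10 of its genes in the established human glioblastoma cell line LN229. They were 3 receptors (NOTCH1, NOTCH2 and NOTCH3), 3 ligands (JAG1, JAG2 and DLL1) and 4 target genes of the HES and HEY families (HES1, HES4, HEY1 and HEYL). The genes were chosen by symbol, for their place in the pathway, and all 10 were found among the 23727 genes of the count table. The filter on low counts kept 7 of them among 15273 tested genes, JAG2, DLL1 and HEYL fell under it, and HEYL had no count in any library. RNA sequencing covered 3 groups of 3 libraries each: untreated cells taken at 0 h, and cells given 500 µM sodium formate for 8 h or for 24 h. Formate, the salt form of formic acid, supplies single carbon units to folate metabolism. The medium of all groups held glucose at 17 mM, glutamine at 2 mM and 10% serum, and none carried a genetic change named in the labels. One cell line was used, and a source label wrote its name as LN299. Every untreated library was from 0 h, so formate and time in culture cannot be told apart. The labels do not say whether the replicates were separate cultures, so p-values measure the spread between these libraries, which may be technical.

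Notch receptors are membrane proteins that are activated by ligands of the Jagged and Delta-like families on neighbouring cells. After ligand binding the receptor is cleaved by ADAM proteases and then by γ-secretase, and the released intracellular part enters the nucleus. There it binds the DNA-binding protein RBPJ together with a Mastermind coactivator and turns on target genes, among them the HES and HEY repressors. In the nervous system the pathway is known for keeping neural stem and progenitor cells undifferentiated, and it has been widely studied in glioma. RNA levels of its genes do not measure receptor cleavage or signalling.

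The libraries held between 22222298 and 25848242 counts, so a count of 0 allowed at most 0.116 to 0.135 CPM for a gene, which is 3 counts per library. The limit was taken from total counts alone, while all other CPM are counts brought to 1 library size by TMM factors. On that scale 3 counts in replicate 1 of 0 h are 0.141 CPM. This limit covers counting error only. On the first principal component of the 500 most variable genes, replicate 1 of the untreated cells (-23.5) and replicate 1 of 8 h (-21.6) stood apart from the other libraries of their groups, which lay between -3.41 and -0.798. The 24 h libraries lay between 9.57 and 25.0. Of 9 markers of astrocytic and glioma cells, NES, VIM, CD44, S100B, SOX2, EGFR and OLIG2 were above 6 CPM in every library. GFAP (0.129 to 0.426 CPM) was near the limit of detection, and SOX9 (0.424 to 1.17 CPM) was low but above it. The summed level of 20 genes of G2 and mitosis was 7935 to 8475 CPM at 0 h, 7700 to 9058 at 8 h and 4659 to 6796 at 24 h. Oligodendrocyte markers summed to 97.4 to 207, 92.0 to 200 and 312 to 515 CPM at 0 h, 8 h and 24 h. Of them, MAG lay between 26.7 and 110 CPM over the 9 libraries, and MBP and MOG under 0.82 CPM. Neuronal markers summed to 76.4 to 129, 95.7 to 122 and 154 to 167 CPM at 0 h, 8 h and 24 h, and mural markers to 666 to 692, 656 to 786 and 780 to 849 CPM. Myeloid markers summed to at most 0.398 CPM, endothelial ones to at most 2.57 CPM and epithelial ones to at most 6.55 CPM. The 9 astrocytic and glioma markers summed to 6285 to 8635, 6418 to 7351 and 5359 to 6210 CPM in the same order. VIM alone had 3199 to 6284 CPM over the 9 libraries, so this sum mostly follows VIM. NES and SOX9 did not fall, with means of 948.5 and 0.759 CPM at 0 h and 963.3 and 0.975 CPM at 24 h. The G2 and mitosis and the astrocytic sums were lower at 24 h than at 0 h with no overlap of libraries, the oligodendrocyte, neuronal and mural sums were higher with none, and their part in the changes described here was not tested.

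The regulatory sequence just before each gene was read from the RefSeq promoter table (GRCh38.p14), which held 8 of the 10 genes and not DLL1 and HEY1. The windows were the 250 bases before the transcription start, searched on both strands. The core of the RBPJ binding motif, TGGGAA, was found in 3 of the 8, all of them target genes: HES1 and HEYL held 2 copies each and HES4 held 1. The 5 receptor and ligand genes in the table (NOTCH1, NOTCH2, NOTCH3, JAG1 and JAG2) held none. Of all 27305 promoters of this length, 21.1% held at least 1 copy and 2.92% held at least 2. The HES1 window, chr3:194135898-194136147 on the plus strand, is shown because HES1 is the best known Notch target and carries both copies on its own strand. They begin 84 and 70 bases before the start, in capitals below, and 59.2% of the window's bases are G or C.
HES1: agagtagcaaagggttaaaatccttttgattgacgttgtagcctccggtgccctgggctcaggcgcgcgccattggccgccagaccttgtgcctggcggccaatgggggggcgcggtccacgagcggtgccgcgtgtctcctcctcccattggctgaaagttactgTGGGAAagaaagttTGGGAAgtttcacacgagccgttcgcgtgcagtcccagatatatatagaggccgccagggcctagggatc
The other copies are given with 12 bases on either side, again with the core in capitals. The HES4 site lies 76 bases before the start at chr1:1000156-1000185 on the minus strand. The HEYL sites lie 178 bases before the start, at chr1:39639804-39639833 on the strand opposite to the gene, and 99 bases before it, at chr1:39639725-39639754 on the gene's own minus strand. The RefSeq starts differ from those of the GENCODE annotation used for the gene coordinates given with the values. By GENCODE both HEYL sites lie inside the gene, and the HES4 site spans its first base.
HES4: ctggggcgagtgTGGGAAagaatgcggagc
HEYL, farther site: gccgccgagccgTGGGAAggccctaggcgg
HEYL, nearer site: aggaaagggcccTGGGAAagggcggtggcg
The JAG1 window, chr20:10674000-10674249 on the minus strand, is shown for contrast because JAG1 was the member whose level changed. It holds no TGGGAA and has 68.4% G or C.
JAG1: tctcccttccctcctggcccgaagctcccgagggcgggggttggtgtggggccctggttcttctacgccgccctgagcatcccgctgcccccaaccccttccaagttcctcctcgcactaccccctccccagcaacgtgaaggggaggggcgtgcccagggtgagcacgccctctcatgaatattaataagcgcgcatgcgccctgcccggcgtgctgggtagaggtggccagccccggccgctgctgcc
The N-box, CACNAG, at which HES repressors bind, was found 3 times before HES1 and once before NOTCH3 (32% of all promoters hold it), and the E-box CACGTG before none of the 8 (6.49% of all promoters). A match of letters is a description of the sequence and says nothing about binding in these cells.

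Of the 10 members, 2 receptors, 1 ligand and 2 targets were above 1 CPM per kilobase of exon in untreated LN229 cells. On this per-length scale NOTCH2 stood highest at 0 h with 15.3 ± 3.31 (SD, n = 3), followed by JAG1 with 12.2 ± 1.29, HES1 with 11.1 ± 0.927 and NOTCH1 with 8.85 ± 2.04 CPM per kilobase. The library ranges of NOTCH2 and JAG1 overlapped, as did those of JAG1 and HES1, so the order of these neighbours was not separated by the replicates. HEY1 followed with 3.15 ± 0.348, HES4 with 0.611 ± 0.334 and NOTCH3 with 0.206 ± 0.0450 CPM per kilobase. JAG2, DLL1 and HEYL were at or under the limit that a count of 0 allows. At 24 h JAG1 had dropped to 6.70 ± 0.732 CPM per kilobase, which placed it under NOTCH1 (10.0 ± 0.286) and HES1 (11.5 ± 0.693). With the longest transcript as the length in place of all exons, NOTCH2 (22.5), JAG1 (19.1), HES1 (14.5) and HEY1 (4.44) were higher at 0 h and their order was unchanged.

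**Figure D1:**
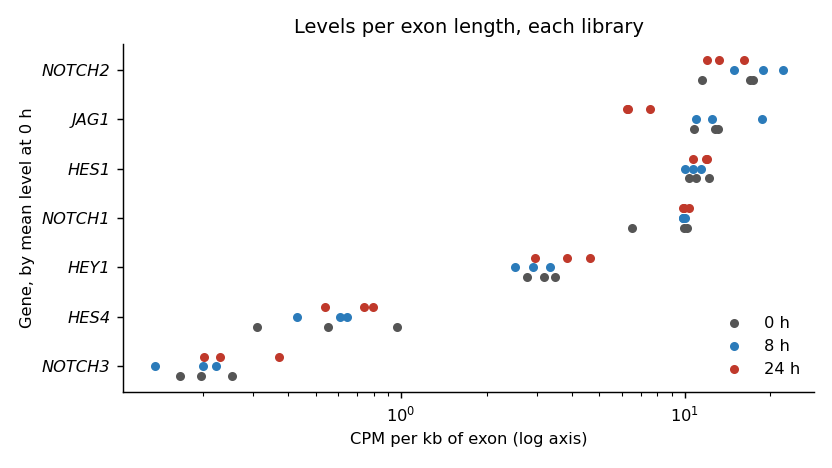
Level of each of the 7 members that passed the filter on low counts (y axis, ordered by the mean at 0 h), in CPM per kilobase of exon on a log axis (x axis), with 1 point per library coloured by hours of formate. NOTCH2, JAG1, HES1 and NOTCH1 lie together near 10 CPM per kilobase, with the 24 h points of JAG1 to the left of its others, and NOTCH3 lies lowest.

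JAG1, which encodes the Jagged1 ligand (ENSG00000101384, GRCh38 chromosome 20, 10637684 to 10673999, minus strand), was the most abundant of the 3 ligand transcripts and was lower after 24 h of formate. In bulk RNA, fewer cells with the transcript and less of it per cell cannot be told apart. Its levels were 122, 99.8 and 119 CPM in replicates 1, 2 and 3 at 0 h, 174, 102 and 116 CPM at 8 h and 70.2, 58.1 and 58.7 CPM at 24 h. The 24 h libraries all lay below every library of the other times, and replicate 1 of 8 h lay above all the rest. The group means were 114 ± 12.01, 130 ± 38.1 and 62.3 ± 6.81 CPM (SD, n = 3). From 0 h to 24 h JAG1 fell by 0.87 on the log2 scale, a 1.82-fold lower level, with a standard error of 0.18 and a 95% interval from -1.26 to -0.48. Its adjusted p was 0.0294 in edgeR's quasi-likelihood test, Benjamini-Hochberg adjusted over all 15273 genes. From 8 h to 24 h it fell by 1.07 on the log2 scale, 2.09-fold, with an interval from -1.46 to -0.67 and an adjusted p of 0.0183 in the same test. At 8 h against 0 h the difference was 0.20 with an interval from -0.19 to 0.59 and an adjusted p of 0.9999 in edgeR's test. JAG1 was the only 1 of the 7 tested members called at 24 h against 0 h, where 4.25% of all tested genes were called (1.77% as lower). It was also the only 1 called at 24 h against 8 h, where 4.56% of all tested genes were called (1.72% as lower).

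The JAG1 difference kept its direction whichever library was left out, but not always its call. When replicate 3 of 0 h, replicate 2 of 24 h or replicate 3 of 24 h was dropped, the difference from 0 h was -0.83, -0.82 and -0.83, and its adjusted p in edgeR's test was 0.051, 0.134 and 0.143. Without replicate 1 of 0 h, which stood apart on the first principal component, it was -0.83 with an adjusted p of 0.0464 in edgeR's test. The difference from 8 h was -0.82 with an adjusted p of 0.0755 in edgeR's test without replicate 1 of 8 h, the library with the highest JAG1 level. DESeq2 called JAG1 lower in both comparisons, where it called 11% and 10.3% of all genes. Against 8 h the difference was -1.03 and -1.04, with adjusted p of 0.0976 and 0.0981 in edgeR's test, without replicate 2 or replicate 3 of 24 h. These fits had no block for replicate number. In them no gene at all was called in either comparison without replicate 2 or replicate 3 of 24 h. The same held at 24 h against 8 h without replicate 1 of 8 h. With such a block, the fits without replicate 2 or 3 of 24 h called 2518 and 2482 genes against 0 h. Against 8 h they called 2206 and 1846, and the fit without replicate 1 of 8 h called 2075. All 20 genes of G2 and mitosis had fitted values below 0 at 24 h against 0 h. Of them, 11 were called lower in edgeR's test, beside 1.77% of all tested genes. Their sum was lower in the same 24 h libraries as JAG1, and the part of cell cycle state in the JAG1 difference was not tested.

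**Figure D2:**
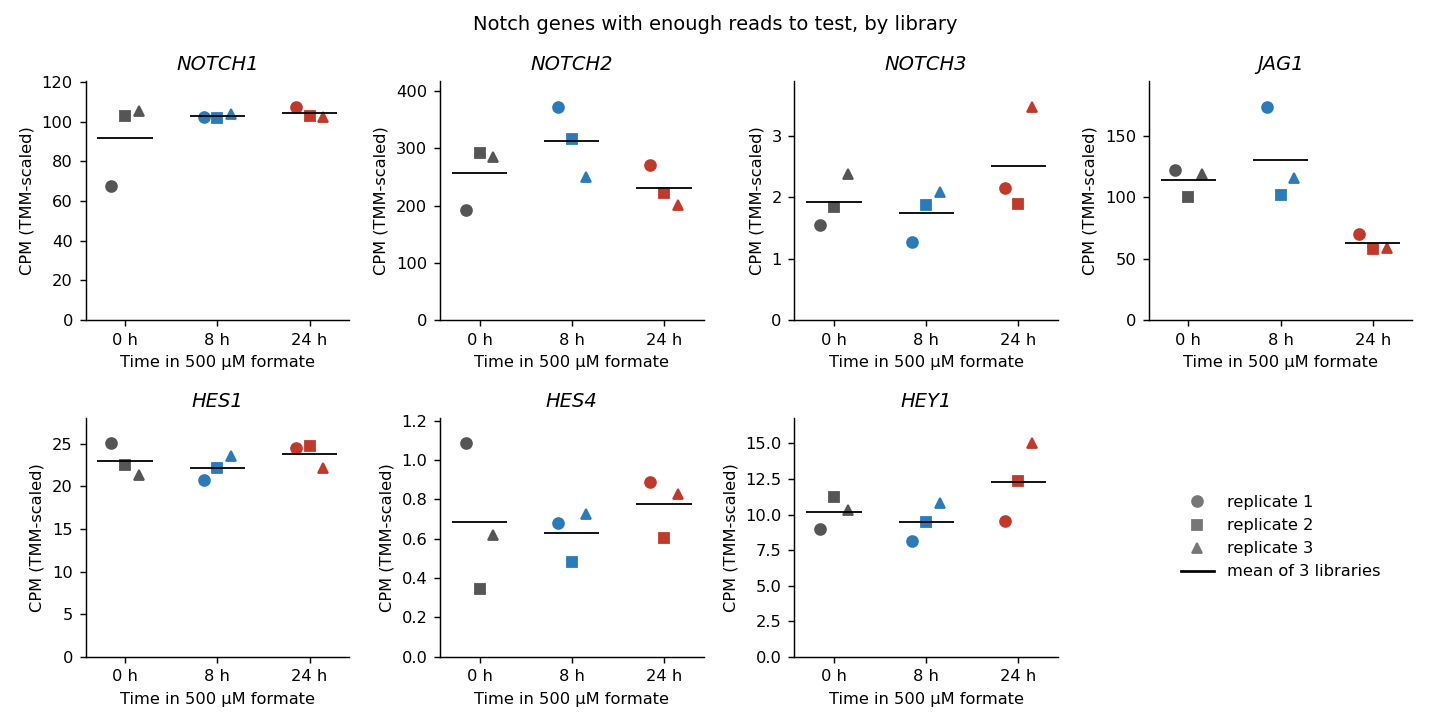
CPM in each of the 9 libraries (y axis, a separate scale per gene, each starting at 0) for the 7 members that passed the filter on low counts, by hours of formate (x axis). Points are libraries marked by replicate number and bars are group means. The JAG1 panel is the one in which the 24 h libraries (58.1 to 70.2 CPM) lie wholly below both other groups.

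The other ligands among the members were barely detected. JAG2, the second Jagged ligand (ENSG00000184916, chromosome 14, 105140981 to 105168824, minus strand), had 0, 0 and 2 counts at 0 h, 1, 0 and 0 counts at 8 h and 4, 3 and 5 counts at 24 h. All 3 libraries of 24 h thus had more JAG2 counts than any other library, at 0.129 to 0.207 CPM. Over the group, 12 counts at 24 h stood against 2 at 0 h, a ratio of 5.9 after scaling by library size with an exact 95% interval from 1.31 to 54.3, and against 1 at 8 h, a ratio of 11.6 with an interval from 1.71 to 494. These intervals cover counting error only, and JAG2 did not enter the test across genes kept by the filter. A fit with no filter on low counts held every gene with a count, 23049 genes. In it JAG1 was the only member called at 24 h, against 0 h or against 8 h. Of its exon bases, 7.33% are shared with another gene on the same strand, AL512356.1. DLL1, a Delta-like ligand (ENSG00000198719, chromosome 6, 170282206 to 170306565, minus strand), had no count at 0 h or 8 h and 2, 1 and 0 counts at 24 h, which is under the limit of 3 counts per library throughout.

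Of the receptors, none passed the test in any comparison. NOTCH1 (ENSG00000148400, chromosome 9, 136494433 to 136545786, minus strand) had 67.5, 103 and 105 CPM at 0 h, 102, 102 and 104 CPM at 8 h and 108, 103 and 102 CPM at 24 h. A single library, replicate 1 of 0 h, was low, and the other 8 lay between 102 and 108 CPM. The log2 difference from 0 h was 0.16 at 8 h (95% interval -0.15 to 0.47) and 0.18 at 24 h (-0.13 to 0.49), and from 8 h to 24 h it was 0.02 (-0.29 to 0.33). The same intervals set how large a change in NOTCH1 these libraries could have missed.

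NOTCH2 (ENSG00000134250, chromosome 1, 119911553 to 120069626, minus strand) had 193, 292 and 286 CPM at 0 h, 373, 317 and 251 CPM at 8 h and 271, 222 and 201 CPM at 24 h. Replicate 1 was the lowest library of 0 h and the highest of both 8 h and 24 h, and the groups overlapped. NOTCH2 differed by 0.29 at 8 h (95% interval -0.12 to 0.70) and by -0.15 at 24 h (-0.56 to 0.26) from 0 h on the log2 scale. Between 8 h and 24 h the difference was -0.44 (-0.85 to -0.03), with an unadjusted p of 0.0391 and an adjusted p of 0.192 by edgeR's quasi-likelihood test (Benjamini-Hochberg). At 24 h against 8 h 22.8% of all tested genes had an unadjusted p under 0.05. Without replicate 1 of 0 h and with the replicate number as a block, NOTCH2 was called lower at 24 h than at 0 h, by -0.47 with an adjusted p of 0.000483 in edgeR's test. Without that library but with no block, the difference was -0.34 with an adjusted p of 0.282 in edgeR's test. Counts of NOTCH2 are uncertain because near-identical partial copies exist on the same chromosome. The table held 2 of these, NOTCH2NLR and NOTCH2NLC, with 2 to 6 and 3 to 11 counts per library, and how shared reads were assigned is not given in the sources used here.

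NOTCH3 (ENSG00000074181, chromosome 19, 15159038 to 15200981, minus strand) was the lowest of the 3 member receptors. Its levels were 1.56, 1.85 and 2.39 CPM at 0 h and 1.27, 1.88 and 2.08 CPM at 8 h. At 24 h they were 2.16, 1.898 and 3.48 CPM. Only replicate 3 of 24 h lay above the range of the other libraries. The log2 difference was -0.14 at 8 h (95% interval -0.79 to 0.51) and 0.38 at 24 h (-0.25 to 1.01) against 0 h, and 0.52 from 8 h to 24 h (-0.11 to 1.16). These intervals are wider than those of NOTCH1 since NOTCH3 had 28 to 84 counts per library.

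Shares were taken of the summed per-length level of the 3 member receptors. NOTCH2 made up 62.0% to 63.2% at 0 h, 59.3% to 69.0% at 8 h and 54.0% to 60.3% at 24 h. NOTCH1 made up 35.9% to 37.1%, 30.6% to 39.8% and 38.8% to 44.3%, and NOTCH3 at most 1.67%. NOTCH4, a receptor outside the members, was not in the sum. At 0 h it had 0.376 ± 0.0686 CPM per kilobase, beside 0.206 ± 0.0450 for NOTCH3. The ratio of NOTCH2 to NOTCH1 was 1.67 to 1.76 in the untreated libraries, including replicate 1, in which both genes were low. It was 1.49 to 2.25 at 8 h and 1.22 to 1.56 at 24 h, so the 24 h libraries lay below the untreated ones and the 8 h libraries spanned both. This is a description of the ratio, which was not tested, and it shares the uncertainty of the NOTCH2 counts.

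The target genes did not pass the test in any comparison either, except HEY1 at 24 h against 8 h when the replicate number was a block. HES1, a basic helix-loop-helix repressor whose promoter with 2 RBPJ cores is printed above (ENSG00000114315, chromosome 3, 194136145 to 194138732, plus strand), had 25.0, 22.5 and 21.3 CPM at 0 h, 20.7, 22.1 and 23.5 CPM at 8 h and 24.4, 24.7 and 22.1 CPM at 24 h. All 9 libraries lay between 20.7 and 25.0 CPM and the groups overlapped. The log2 difference from 0 h was -0.05 at 8 h (95% interval -0.29 to 0.18) and 0.05 at 24 h (-0.18 to 0.28), and from 8 h to 24 h it was 0.10 (-0.13 to 0.33). These were the narrowest intervals of the 7 tested members, and the bound of 0.28 lies well inside the size of the JAG1 change.

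HEY1, a related repressor (ENSG00000164683, chromosome 8, 79764010 to 79767863, minus strand), had 9.01, 11.2 and 10.3 CPM at 0 h, 8.13, 9.45 and 10.8 CPM at 8 h and 9.56, 12.4 and 15.01 CPM at 24 h. In each group replicate 1 was the lowest, and replicate 1 of 24 h lay within the range of the untreated libraries. The log2 difference was -0.11 at 8 h (95% interval -0.50 to 0.29) and 0.27 at 24 h (-0.12 to 0.66) against 0 h. From 8 h to 24 h it was 0.38 (-0.01 to 0.77), with an adjusted p of 0.234 by edgeR's quasi-likelihood test (Benjamini-Hochberg). With the replicate number as a block it was 0.37 with an adjusted p of 0.0484 in edgeR's test. Each 24 h library was above the 8 h library of its number. Across all genes, however, not every same-numbered pair of 8 h and 24 h was more alike than the pairs of different number. The block called 20.5% of all tested genes in that comparison.

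HES4 (ENSG00000188290, chromosome 1, 998962 to 1000172, minus strand), another HES repressor, had 1.08, 0.346 and 0.620 CPM at 0 h, 0.681, 0.481 and 0.723 CPM at 8 h and 0.888, 0.604 and 0.829 CPM at 24 h. It rested on 9 to 23 counts per library and the untreated libraries spanned the range of all the others. The log2 difference from 0 h was -0.09 at 8 h (95% interval -0.97 to 0.79) and 0.21 at 24 h (-0.64 to 1.06). These intervals, the widest of the 7 tested members, leave room for changes as large as that of JAG1. HEYL, the third HEY family member (ENSG00000163909, chromosome 1, 39624153 to 39639945, minus strand), had 0 counts in all 9 libraries. That allows a level of up to 0.135 CPM by total counts, or 0.141 CPM in replicate 1 of 0 h with its TMM factor.

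At 8 h, 0 of the 7 tested members passed edgeR's test, 0 had an unadjusted p under 0.05, and DESeq2 called 0. The background was the same, since 0% of all 15273 tested genes were called at 8 h, 0.517% had an unadjusted p under 0.05, and DESeq2 called 0 genes. The groups did not overlap for 0 of the 7 members at 8 h, beside 3.31% of all tested genes. The median log2 difference of the 7 members was -0.05 at 8 h and 0.18 at 24 h against 0 h, beside -0.02 and 0.01 for all tested genes. At 24 h against 0 h, 5 of the 7 fitted values were above 0 and 2 below. JAG1 was the 1 of 7 members whose groups did not overlap at 24 h against 0 h, beside 30.3% of all tested genes, and the 1 of 7 at 24 h against 8 h, beside 34.3%.

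**Figure D3:**
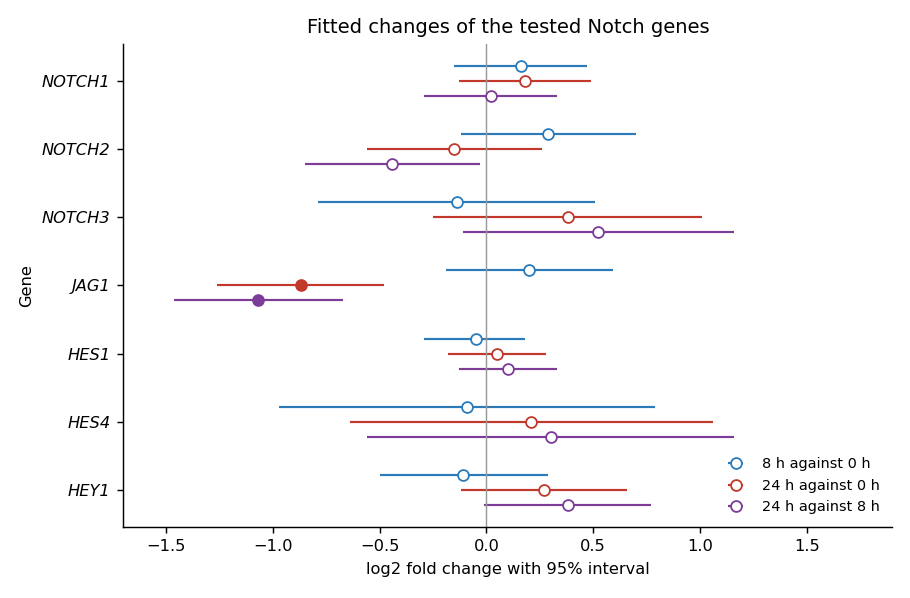
Fitted log2 fold changes of the 7 tested members (y axis) with 95% intervals as lines and filled points for adjusted p under 0.05, for 8 h and 24 h against 0 h and for 24 h against 8 h (x axis, log2 units). The intervals of JAG1 lie wholly below 0 at 24 h (-1.26 to -0.48 against 0 h), and HES1 has the narrowest intervals.

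The rest of the pathway was read from a list of 77 other genes, of which 73 were in the table and 67 were tested. At 24 h against 0 h, 8 of the 67 (11.9%) were called, 5 of them higher and 3 lower, beside 4.25% of all tested genes (2.47% higher and 1.77% lower). At 24 h against 8 h, 10 (14.9%) were called, 7 higher and 3 lower, beside 4.56% (2.84% higher and 1.72% lower), and at 8 h against 0 h 0 were called and 0 had an unadjusted p under 0.05. The median log2 difference of the 67 was 0.06 at 24 h against 0 h, beside 0.01 for all genes, and the median of its size was 0.23 in both. With the replicate number as a block, 23 of the 67 (16 higher and 7 lower) were called at 24 h against 0 h, where the block called 24.1% of all genes (20.5% at 24 h against 8 h). DESeq2 called 13, beside 11% of all genes in its own fit. These counts depended on single libraries, shown here for fits without the replicate block. At 24 h against 0 h the count was 5 when any 1 untreated library was dropped, 4 and 3 when replicate 2 or 3 of 8 h was, and 0 without replicate 2 or 3 of 24 h. Over all genes those fits called 356, 574 and 418 without replicates 1, 2 and 3 of 0 h. They called 445 and 284 without replicate 2 or 3 of 8 h, and 0 without replicate 2 or 3 of 24 h. At 24 h against 8 h the pathway count was 18 when replicate 1 of 0 h was dropped, 5 for replicate 3 of 0 h, 0, 3 and 1 when replicates 1, 2 and 3 of 8 h were dropped in turn, and 0 without replicate 2 or 3 of 24 h. Over all genes those fits called 2545 and 518, then 0, 372 and 53, and 0, in the same order. Each fit tested 15489 to 15619 genes. The values that follow are CPM, with adjusted p from edgeR's quasi-likelihood test (Benjamini-Hochberg), and the differences are on the log2 scale for 24 h against 0 h.

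Among the genes that add sugars to the receptors, 2 of 8 were called, 1 in each direction. MFNG, the Manic Fringe glycosyltransferase that modifies how receptors respond to the 2 ligand classes, had 14.1, 9.24 and 12.9 CPM at 0 h, 13.4, 9.45 and 12.3 CPM at 8 h and 4.82, 5.61 and 4.10 CPM at 24 h. The 24 h libraries lay below all others and MFNG fell by 1.31 (SE 0.20, edgeR adjusted p = 0.0168), a 2.48-fold lower level. GXYLT2, a xylosyltransferase that extends sugars on Notch repeats, had 12.3 to 14.7 CPM at 0 h and 18.1 to 20.3 CPM at 24 h and rose by 0.50 (SE 0.12, edgeR adjusted p = 0.0396).

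Of 4 tested genes for other receptors and ligands none was called. The smallest p was that of MFAP2, a microfibril protein reported to bind Notch ligands, at 0.707, 0.539 and 0.974 CPM at 0 h and 0.381, 0.302 and 0.539 CPM at 24 h, a difference of -0.84 (95% interval -1.62 to -0.06, edgeR adjusted p = 0.166). None of 9 genes of receptor cleavage was called without the replicate block, and 3 were with it, beside 24.1% of all tested genes. PSENEN, a subunit of γ-secretase, had the smallest p of the 9, with 24.0, 17.6 and 17.5 CPM at 0 h and 16.2, 14.2 and 13.6 CPM at 24 h, a difference of -0.42 (edgeR adjusted p = 0.0965, and 0.0152 with the replicate block). The other two were chosen here after their values were seen: ADAM10, the protease of the first cut, with a difference of 0.36 (edgeR adjusted p = 0.126, and 0.0129 with the block), and NCSTN, another γ-secretase subunit, with 0.29 (edgeR adjusted p = 0.144, and 0.0306 with the block). Of the exon bases of PSENEN, 41% are overlapped on the opposite strand, so its counts are uncertain where the strand setting is not known.

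None of 8 genes of the nuclear activation complex was called without the replicate block. With it 3 were called, all higher, where the block called 24.1% of all tested genes in either direction. MAML3, a Mastermind coactivator, had the smallest p, with 18.5, 29.9 and 28.98 CPM at 0 h and 37.1, 37.9 and 36.7 CPM at 24 h. Its groups did not overlap and the difference was 0.53 (95% interval 0.15 to 0.90, edgeR adjusted p = 0.0944, and 0.00928 with the replicate block). RBPJ, the DNA-binding protein of the complex, and KAT2B, a histone acetyltransferase, were added after their values were seen. KAT2B differed by 0.56 (edgeR adjusted p = 0.0963, and 0.00662 with the block). RBPJ had 78.9, 115 and 112 CPM at 0 h and 123, 133 and 132 CPM at 24 h, a difference of 0.35 (95% interval 0.06 to 0.64, edgeR adjusted p = 0.135, and 0.0243 with the replicate block).

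Among the corepressors, TLE2, a Groucho-type corepressor of the kind recruited by HES proteins, had 4.10, 4.27 and 3.80 CPM at 0 h and 5.54, 5.997 and 7.38 CPM at 24 h. Its difference of 0.63 missed the threshold narrowly (edgeR adjusted p = 0.0502, and 0.0128 with the replicate block), and the difference from 8 h of 0.64 passed it (edgeR adjusted p = 0.0468).

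Among 15 genes of trafficking and turnover 1 was called. NEURL1B, a Neuralized-type ubiquitin ligase of the family that acts on Notch ligands, had 62.4, 51.7 and 52.0 CPM at 0 h, 59.6, 52.2 and 57.1 CPM at 8 h and 35.9, 37.4 and 33.8 CPM at 24 h. The 24 h libraries lay below all others and it fell by 0.63 (SE 0.11, edgeR adjusted p = 0.0199). On the opposite strand 5.96% of its exon bases are overlapped by another gene.

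Of 9 tested genes in the group of other targets and HES and HEY relatives, 4 were called at 24 h against 0 h, 3 higher and 1 lower, and 5 at 24 h against 8 h. FABP7, the brain fatty acid binding protein of radial glia, had 44.2, 50.2 and 45.4 CPM at 0 h, 34.0, 52.6 and 44.6 CPM at 8 h and 86.8, 110 and 136 CPM at 24 h, and rose by 1.25 (SE 0.18, edgeR adjusted p = 0.0167), which is 2.38-fold. CDKN1A, the cell cycle inhibitor p21, had 108, 90.3 and 80.4 CPM at 0 h and 220, 134 and 135 CPM at 24 h and rose by 0.81 (SE 0.18, edgeR adjusted p = 0.0358). BHLHE40, a basic helix-loop-helix repressor related to the HES family, had 60.9 to 80.7 CPM at 0 h and 100 to 107 CPM at 24 h and rose by 0.52 (SE 0.13, edgeR adjusted p = 0.0425). CCND1, cyclin D1, had 1101, 876 and 853 CPM at 0 h and 685, 576 and 428 CPM at 24 h and fell by 0.74 (SE 0.18, edgeR adjusted p = 0.0442), with 10.3% of its exon bases overlapped on the opposite strand by LTO1. HEY2, a HEY repressor, had 4.20, 4.04 and 4.07 CPM at 0 h, 3.68, 4.29 and 3.66 CPM at 8 h and 5.46, 6.13 and 7.92 CPM at 24 h. Its difference from 0 h of 0.66 had an edgeR adjusted p of 0.0544 (0.0130 with the replicate block), and the difference from 8 h of 0.75 passed the threshold (edgeR adjusted p = 0.0389). CDKN1A and CCND1 are also cell cycle genes and many pathways act on them, and the summed G2 and mitosis genes were lower in the same 24 h libraries.

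Fitted on the 2 groups alone, GXYLT2, CCND1, CDKN1A and BHLHE40 were no longer called at 24 h against 0 h, with edgeR adjusted p from 0.0707 to 0.0789. MFNG, NEURL1B and FABP7 were called in that fit too. With 1 library left out and no block, the call at 24 h against 0 h held in 1 of 9 fits for GXYLT2. It held in 2 each for CCND1 and BHLHE40, 3 for CDKN1A, and 7 each for MFNG, NEURL1B and FABP7. With the replicate block it held in all 9 for each of these genes. With RLE size factors, the calls at 24 h against 8 h of TLE2 and CDKN1A were lost, with edgeR adjusted p of 0.0503 and 0.0506.

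**Figure D4:**
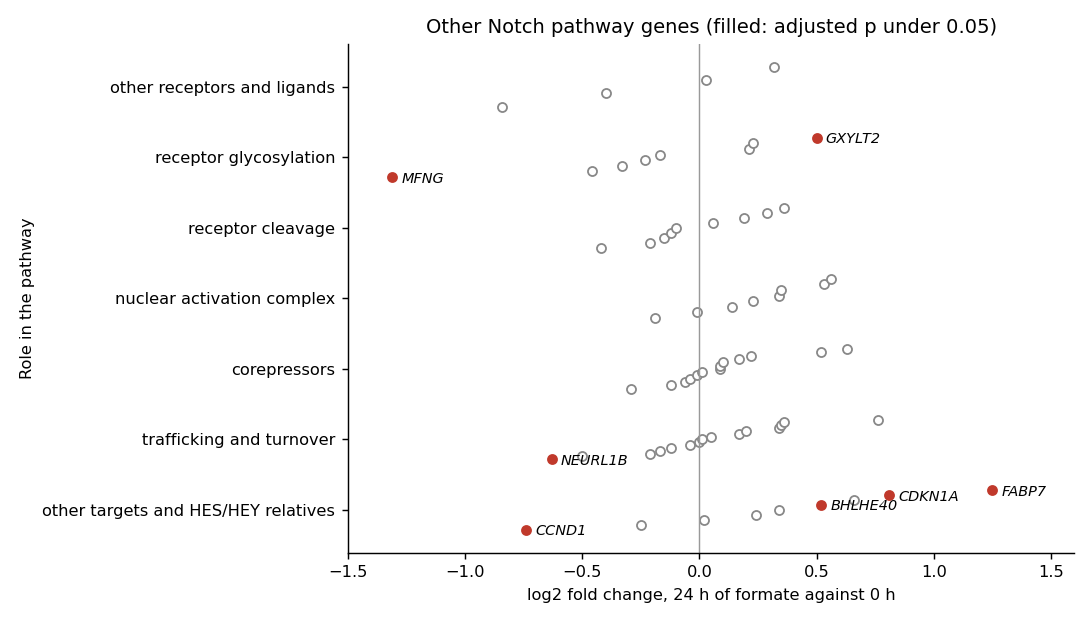
Fitted log2 fold change at 24 h against 0 h (x axis, log2 units) of the other tested pathway genes that are reported here, by role (y axis), with points of a role spread vertically by rank for legibility. Filled points with a name passed the adjusted p threshold of 0.05 in edgeR's test and open points did not, and MFNG (-1.31) and FABP7 (1.25) lie farthest from 0.

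Across the 9 libraries, the genes whose log2 CPM followed JAG1 most closely, among 10906 genes with a mean of at least 5 CPM, were IL17RA (Pearson r = 0.991), the receptor for interleukin 17, SH3RF1 (r = 0.984), a scaffold protein with ubiquitin ligase activity, and RSPRY1 (r = 0.982). Their mean levels went from 60.7 to 48.1, from 35.0 to 27.0 and from 51.0 to 40.5 CPM between 0 h and 24 h, smaller differences than that of JAG1. Among the members themselves, NOTCH3 and HEY1 had the highest r (0.817) and JAG1 and HEY1 the lowest (-0.775). All these correlations are over the same 9 libraries in 3 groups and share their group differences and library composition, so they are given as descriptions.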

How the data were processed

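RNA of 9 LN229 samples (3 untreated at 0 h, 3 each with formate for 8 h and 24 h) was sequenced after a stranded mRNA library preparation, from RNA with an integrity number above 9, per the labels' protocols. The authors deposited raw counts per Ensembl gene, in 1 table. The submitters' processing notes name bcl2fastq 2.20.0.422, STAR 2.7.4a and GRCh38. The counting program, the annotation and the strand setting are not given in the sources used here. Columns were matched to samples by time and replicate number.

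Low counts were filtered with filterByExpr, TMM factors were computed, and edgeR 4.0.16 (R 4.3.3) fitted 1 mean per group over all 9 libraries. Each comparison used the quasi-likelihood test, two-sided, with Benjamini-Hochberg adjustment over 15273 genes and a threshold of 0.05. CPM per kilobase used the union of exons in GENCODE 29 on GRCh38, the source of the coordinates and overlaps.

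Members, gene lists and the naming rule were chosen with earlier results of these data known. All members were named. Of the other pathway genes, those with an adjusted p under 0.05 in any comparison were named and, in each role group with none, the gene of smallest p at 24 h against 0 h. For JAG1, the 3 genes with the highest r were named. Not every gene that fits this rule is reported here. Of the 77 list entries, 4 were not analysed here.

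Same-numbered libraries deviated together from their group means, with r across genes of 0.476, 0.432 and 0.414 between 0 h and 8 h for numbers 1, 2 and 3, and 0.367, 0.164 and 0.251 between 0 h and 24 h. Between 8 h and 24 h r was 0.423, 0.0367 and 0.404. Pairs of different number reached at most 0.0108 between 0 h and 8 h. They reached 0.270 between 0 h and 24 h (24 h replicate 2 with 0 h replicate 3). Between 8 h and 24 h they reached 0.134 (24 h replicate 2 with 8 h replicate 3). Only between 0 h and 8 h did every same-numbered pair exceed every pair of different number. The numbers come from the titles. The edgeR test reported for each comparison did not pair libraries by them. The replicate block, which does so in every comparison, was an alternative only. Libraries of a group differed by more than sampling noise (chi-square per degree of freedom 8.51 to 58.6). Alternatives were a replicate block, RLE size factors, no filter, DESeq2 1.42.0, a fit on the 2 groups compared, each library left out with and without the block, and the longest transcript as length.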

Additional observations from a re-analysis of the deposited data

Results flagged for a closer look

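Of the 10 members, JAG1 had a difference from 0 h that itself differed between 24 h and 8 h, by -1.07 on the log2 scale. This is the comparison of 24 h with 8 h, since both share the untreated libraries, and it passed edgeR's quasi-likelihood test (Benjamini-Hochberg adjusted). The same held for other genes of the pathway list. MFNG (-1.27), CCND1 (-0.81) and NEURL1B (-0.66) were lower at 24 h than at 8 h. FABP7 (1.34), HEY2 (0.75), CDKN1A (0.74), TLE2 (0.64), BHLHE40 (0.56) and GXYLT2 (0.53) were higher. No library was compared with the others of its group by a rule on outliers, since each group held 3.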

How the results depend on the processing

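JAG1 was called lower at 24 h, against 0 h and against 8 h, under all 5 alternatives that kept the 9 libraries and in all 9 fits that left out 1 library with the replicate block. With the block, 2 members (JAG1 and HEY1, 0.37 with an edgeR adjusted p of 0.0484) were called at 24 h against 8 h. In that comparison the block called 20.5% of all tested genes. The pathway count at 24 h against 0 h was 23 with the block, 13 with DESeq2 and 3 in a fit on the 2 groups. Over all genes these called 3687 of 15273, 1594 of 14556 and 124 of 15038. At 24 h against 8 h the pathway count was 18 with the block and 16 in a fit on the 2 groups. Over all genes these called 3130 of 15273 and 1787 of 15029. DESeq2 also called TLE2 and HEY2 higher at 24 h against 0 h, with its adjusted p of 0.0154 and 0.0162. Fits on fewer libraries estimate the spread from fewer samples. Leaving out 1 library, with or without the block, gave 0 to 2 members called at 24 h against 0 h and 0 to 3 at 24 h against 8 h (JAG1, HEY1 and NOTCH2, with the block and without replicate 1 or 3 of 0 h), and pathway counts of 0 to 26 and 0 to 34. Over all genes these fits called 0 to 3816 and 0 to 5432 of 15489 to 15619 tested. At 8 h against 0 h no alternative called a member or a pathway gene. The longest transcript as length moved NOTCH2 to 22.5, JAG1 to 19.1, HES1 to 14.5 and HEY1 to 4.44 CPM per kilobase.

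Signs of values near 0 turned in some of these fits, and no turned value was called. Over the fits that left out 1 library, the 8 h minus 0 h difference ranged from -0.03 to 0.30 for NOTCH1, -0.03 to 0.50 for NOTCH2, -0.32 to 0.05 for NOTCH3, -0.05 to 0.35 for JAG1, -0.14 to 0.04 for HES1 and -0.43 to 0.39 for HES4. The 24 h minus 0 h difference ranged from -0.03 to 0.31 for NOTCH1, -0.47 to 0.05 for NOTCH2, 0.00 to 0.11 for HES1 and -0.13 to 0.68 for HES4. The 24 h minus 8 h difference ranged from -0.11 to 0.10 for NOTCH1 (0.00 with DESeq2) and from 0.00 to 0.19 for HES1. The cause was not tested. Depth limits HES4 and NOTCH3, and leaves JAG2, DLL1 and HEYL out of the test on genes kept by the filter.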
